A study of Rattus norvegicus with 4 samples.

Results

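The SLC39 zinc importers, also called ZIP proteins, were described here in rat macrophages exposed to a zinc-containing particle. Their genes were taken from the arrays through the RefSeq accession of each probe: 7 probes, each printed in a single spot, belonged to 6 genes, Slc39a1, Slc39a4, Slc39a6, Slc39a7, Slc39a8 and Slc39a14, out of 16581 genes with a symbol. NR8383 is a line started from lung lavage cells of a normal rat, and it grows partly attached and partly in suspension. The cells were kept for 20 passages, seeded 48 h ahead and exposed for 4 h to 9.25 µg/mL of NiZnFe2O4, whose formula names an oxide holding nickel, zinc and iron together. RNA from 4 biological replicates, carrying the dye Cy3, was read on 4 Agilent arrays of 1 colour, with 1 array for each replicate. All 4 arrays held exposed cells. Arrays of untreated cells, which the design also names, were not analysed here, so the values describe what exposed cells held and do not show what the exposure changed.

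ZIP proteins carry zinc into the cytosol, from outside the cell or out of an organelle, and the SLC30 (ZnT) exporters move it the other way. Metallothioneins bind zinc in the cytosol, and the transcription factor MTF1 senses it and drives their genes. Some ZIP proteins also carry iron, manganese or cadmium, and in macrophages zinc uptake is tied to the inflammatory response.

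The macrophage label was checked against markers. Of 10 macrophage markers 7, among them Cd68, Lyz2 and Spi1, passed as well above background on each of the 4 arrays, while Marco and Adgre1 were on none and Mrc1 was on 3. Of 5 lung epithelial markers only Foxj1 was, and Sftpc, Epcam and Scgb1a1 were on no array. Of 3 measured T and B cell markers Lck was, of 3 fibroblast markers Dcn was, and of 2 measured neutrophil markers none. Over all genes with a symbol, the share that passed on all 4 arrays was 38.7%. The part of other cells in the values below was not tested. All 4 arrays lay on 1 slide with 1 scan time. Between 21812 and 24981 of 58717 spots for rat transcripts were well above background, no spot was saturated, and Pearson's r across 6418 genes lay between 0.975 and 0.986 for pairs of arrays. Genes are not independent replicates.

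Probes for 5 of the 6 genes, Slc39a1, Slc39a4, Slc39a6, Slc39a7 and Slc39a8, were well above background on each of the 4 arrays of exposed cells. Of all 16581 genes with a symbol, 38.7% met the same criterion. Slc39a14 was well above background on no array, as were 51.4% of all genes with a symbol. "Well above background" is a flag that the authors' extraction software sets for each spot by comparing it with its background. Signals are the deposited processed signals in intensity units, and levels are log2 signals minus the 75th percentile over all probes of the same array. A gene's probe sequence affects its brightness, so no gene's level was set against another's.

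**Figure D1:**
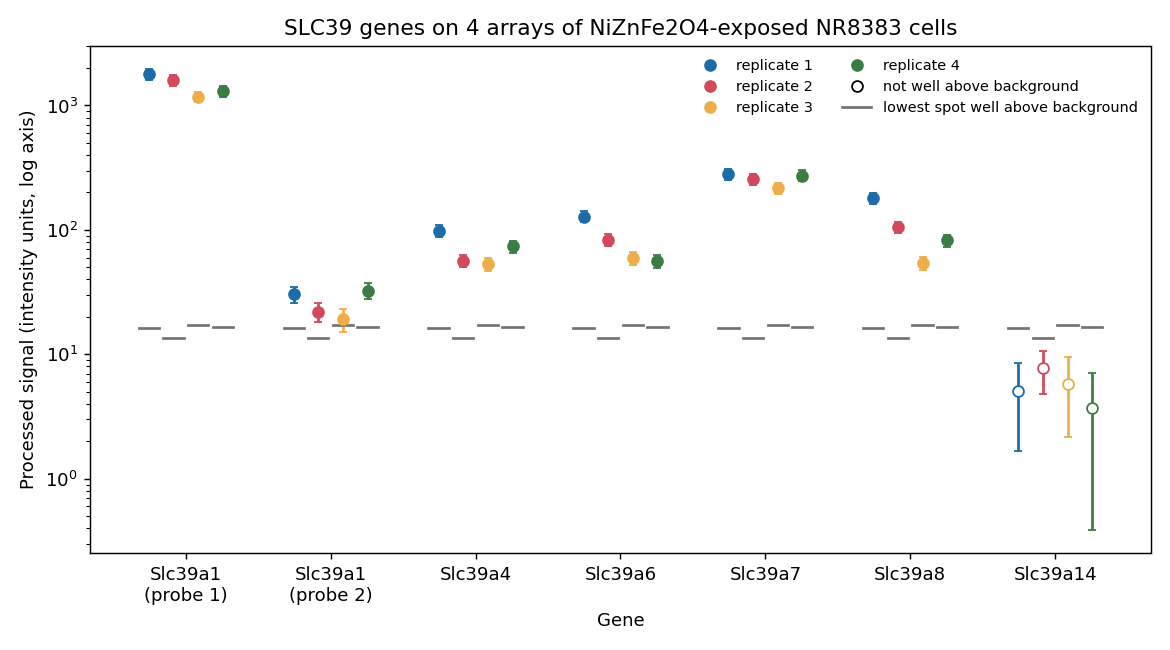
Processed signal of each SLC39 probe on each array, in intensity units on a log axis. Points are single spots, bars are the error that the extraction software gives for the spot, open points are not well above background, and grey ticks mark the lowest signal among spots well above background on that array. Slc39a14 lies below the ticks on all 4 arrays, and the second Slc39a1 probe lies just above them.

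Slc39a1 encodes ZIP1, a zinc importer of the plasma membrane found in many tissues. Its probe A_42_P548763 gave signals of 1786, 1588, 1177 and 1302 on replicates 1 to 4. These were 68.2 to 117 times the lowest signal of any spot well above background on the same array. After scaling, the levels were 5.42, 5.60, 5.65 and 5.72, with a mean of 5.60 ± 0.13 (SD, n = 4). Replicate 1 was thus the brightest before scaling and the lowest after it, because its 75th percentile was also the highest, at 41.6 intensity units. On replicates 2, 3 and 4 that percentile was 32.7, 23.5 and 24.8.

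A second probe for the same transcript, A_44_P302237, was far dimmer. Its signals were 30.5, 22.0, 19.2 and 32.5 on replicates 1 to 4, only 1.11 to 1.96 times the lowest signal of spots well above background. Its levels were -0.45, -0.57, -0.29 and 0.39, with a mean of -0.23 ± 0.43 (SD, n = 4), and replicate 4 was the highest. The probes disagreed on the differences between arrays: the brighter probe exceeded the dimmer one by 5.87, 6.17, 5.94 and 5.32 log2 units on replicates 1 to 4, a range of 0.85. The positions of the probes in the transcript were not known. As for every gene, the level of Slc39a1 below is that of the probe with the highest mean.

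Slc39a7 encodes ZIP7, which releases zinc from the endoplasmic reticulum into the cytosol and in human cells is switched on by the kinase CK2. Its signals were 282, 257, 216 and 273 on replicates 1 to 4, against local background readings of 25 to 29 around the spots. These signals differed by 0.39 log2 units between the brightest and the dimmest array. Scaling widened the range, since the levels were 2.76, 2.97, 3.20 and 3.47 and spanned 0.70. Their mean was 3.10 ± 0.30 (SD, n = 4).

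The promoters of Slc39a1 and Slc39a7 are shown because they were the members whose RefSeq window held the core of the metal response element, the site through which MTF1 acts on metallothionein genes. The windows are the 250 bases before the annotated start, from RefSeq on build GRCr8, and capitals mark TGCACNC or TGCGCNC on either strand. The Slc39a1 window is chr2:178000869-178001118, plus strand, and the Slc39a7 window is chr20:4824809-4825058, plus strand.
Slc39a1: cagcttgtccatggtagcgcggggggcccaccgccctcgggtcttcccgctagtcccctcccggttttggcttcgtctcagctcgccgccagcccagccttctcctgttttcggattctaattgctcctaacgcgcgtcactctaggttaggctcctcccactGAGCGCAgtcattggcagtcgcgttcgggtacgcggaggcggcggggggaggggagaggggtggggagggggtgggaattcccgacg
Slc39a7: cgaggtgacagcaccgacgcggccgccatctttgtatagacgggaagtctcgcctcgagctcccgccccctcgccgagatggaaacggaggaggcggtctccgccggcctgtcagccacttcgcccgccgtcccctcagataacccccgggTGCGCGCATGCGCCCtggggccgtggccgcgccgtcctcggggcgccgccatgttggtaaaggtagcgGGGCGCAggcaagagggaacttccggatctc
Slc39a1 held 1 core, 87 bases before the start. Slc39a7 held 4 cores, with their leftmost letters 99, 98, 91 and 31 bases before the start, of which the cores at 99 and 98 overlap on opposite strands. At least 1 core was found in 20.6% of all 33469 windows and 4 or more in 0.266%. The windows of Slc39a6 and Slc39a8 held none, and Slc39a4 and Slc39a14 were not matched to a window. For comparison, the windows of Mt1 and Mt2A held 6 and 4 cores. A match of letters is a description and not a binding site.

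Slc39a8 encodes ZIP8, a carrier of zinc, manganese, iron and cadmium that NF-kB turns on in human monocytes and macrophages. Its level had the largest SD of the 5 genes above background. Its signals were 179, 105, 53.8 and 82.3 on replicates 1 to 4, so that replicate 1 was the brightest and replicate 3 the dimmest. The signals spanned 1.74 log2 units before scaling. After it, the levels were 2.11, 1.69, 1.19 and 1.73, with a mean of 1.68 ± 0.37 (SD, n = 4). The scaled levels still spanned 0.91 log2 units, a 1.88-fold range, and the order of replicates 1 and 3 at the ends remained.

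Slc39a6 encodes ZIP6, also called LIV-1, an importer of the plasma membrane that pairs with ZIP10. In mouse dendritic cells a bacterial stimulus is known to lower it. Its signals were 128, 83.1, 59.7 and 56.2 on replicates 1 to 4. The levels were 1.62, 1.35, 1.34 and 1.18, with a mean of 1.37 ± 0.18 (SD, n = 4). Replicate 1 was the highest both before and after scaling, and the range narrowed to 0.44 log2 units after scaling, against 1.19 before it.

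Slc39a4 encodes ZIP4, best known as the importer through which the intestine takes up zinc from food. Its probe was nonetheless well above background in these macrophages. Its signals were 98.2, 56.6, 53.5 and 73.9 on replicates 1 to 4, which is 3.10 to 6.03 times the lowest signal of spots well above background. The raw spot readings were 136.5, 90.5, 93 and 121, against local background readings of 26, 29, 28 and 30. The levels were 1.24, 0.79, 1.19 and 1.58, with a mean of 1.20 ± 0.32 (SD, n = 4). Replicate 2 was the lowest and replicate 4 the highest.

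Slc39a14 encodes ZIP14, which carries zinc, manganese and iron that is not bound to transferrin, and which interleukin-6 induces in mouse liver. Its signals were only 5.09, 7.74, 5.84 and 3.73 on replicates 1 to 4. The lowest signals among spots well above background were 16.3, 13.6, 17.3 and 16.6 on the same arrays, so these values give only an upper bound. Its spot did carry the looser flag, positive and significant against background, on all 4 arrays, as 50.9% of all genes did. Among 308 negative control spots 8 to 10 per array carried that flag. The error that the extraction gives for the spot was 37.4% to 89.6% of its signal. A low level of the transcript was therefore not measurable at this signal, and its absence is not shown.

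**Figure D2:**
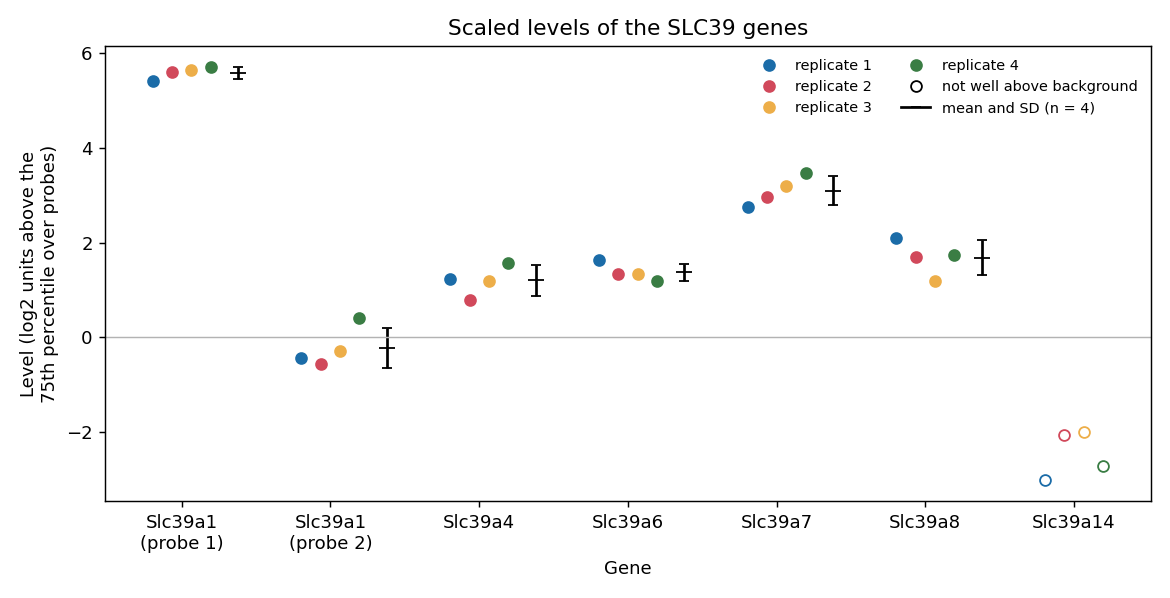
Level of each SLC39 probe, as log2 units above the array's 75th percentile over probes, with single arrays as coloured points and the mean with SD (n = 4) in black. Open points are not well above background and have no mean. Slc39a8 spans 0.91 log2 units and the brighter Slc39a1 probe 0.29.

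The spread between replicates was set beside that of all genes above background. The SDs of the 5 genes ran from 0.13 for Slc39a1 to 0.37 for Slc39a8, with a median of 0.30, and the median over the 6418 genes above background was 0.23. Slc39a1, by its brighter probe, had a larger SD than 16.0% of those genes, Slc39a6 than 35.1%, Slc39a7 than 71.5%, Slc39a4 than 75.2% and Slc39a8 than 84.0%. None of the 5 lay beyond the 10th to 90th percentile range of 0.10 to 0.43. The dimmer Slc39a1 probe had a larger SD than 89.9% of the genes, and the mean of both probes had an SD of 0.26, so the low spread of Slc39a1 held for its brighter probe alone. The order of the medians also turned: it was 0.22 for the 5 genes and 0.24 for all genes without replicate 2, and 0.18 and 0.19 with the normexp background correction. With no filter on dim probes it was 0.31 for the 6 genes and 0.43 for all genes. The extraction's error for single spots was set beside the SDs as well. With the brighter Slc39a1 probe, its median ran from 0.14 to 0.15 log2 units over the 5 genes. The ratios to that error therefore mostly follow the SDs. For Slc39a1 the SD was 0.91 times that error on the log2 scale by the brighter probe and 1.96 times by the dimmer one. For Slc39a6 it was 1.18 times. For Slc39a4, Slc39a7 and Slc39a8 it was 2.11, 2.18 and 2.53 times. That error covers the spot alone, while the SD spans separate biological replicates. The SD of Slc39a7 was 0.13 in the normexp setting, which also starts from median signals and adds an offset of 50. What each of these parts did to the SD was not tested. The error of 0.14 for Slc39a7 belongs to the processed signal, so no ratio was formed with normexp.

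The genes deviated in different directions on the same array. On replicate 1, Slc39a8 lay 0.43 log2 units above its mean while Slc39a7 lay at -0.34 from its own. On replicate 3, Slc39a8 was at -0.48 and Slc39a7 at 0.10. On replicate 4, 4 of the 5 genes were above their means, led by Slc39a4 at 0.38, and 60.1% of all genes above background were too. With 4 arrays no correlation between genes was computed. The spots within 10 rows and 10 columns of each member were read as well. Their median deviation from the other arrays lay between -0.12 for Slc39a7 on replicate 1 and 0.13 for Slc39a8 on replicate 4. With this local trend removed, the SD of Slc39a7 was 0.24, against 0.30 in the main setting. The median SD of the 5 genes was then 0.24, and that of genes above background printed in 1 spot was 0.23.

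**Figure D3:**
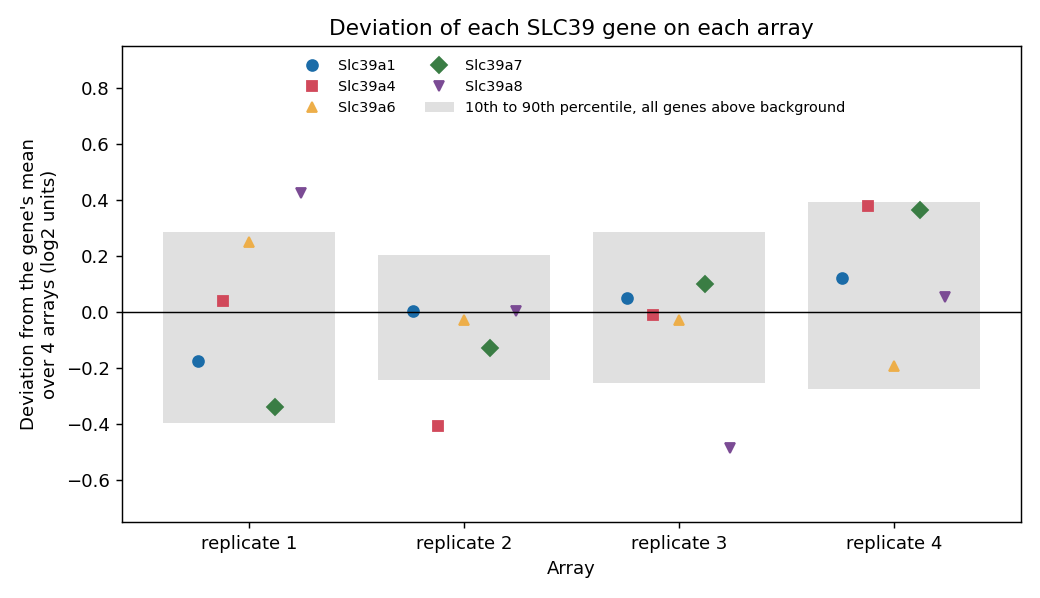
Deviation of each SLC39 gene from its own mean over 4 arrays, in log2 units, on each array; grey bars span the 10th to 90th percentile of all 6418 genes above background. Slc39a8 lies above the bar on replicate 1 and below it on replicate 3, and Slc39a4 lies below it on replicate 2.

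The order of the SDs moved with the normalization. With the 75th percentile taken over probes above background, the SD of Slc39a8 was 0.42 and that of Slc39a7 was 0.24, level with Slc39a6 at 0.24. With the normexp background correction the SD of Slc39a7 was 0.13 and that of Slc39a8 was 0.33. In these normalizations and the others drawn, Slc39a8 had the largest SD of the 5 genes. Without replicate 3 the SD of Slc39a8 was 0.23, against 0.37 with all 4 arrays. Single arrays also bore on the SD of the other genes: without replicate 1 it was 0.06 for Slc39a1 and 0.09 for Slc39a6. It was 0.21 for Slc39a4 without replicate 2 and 0.22 for Slc39a7 without replicate 4. Slc39a4 had the largest SD of the 5 genes without replicate 1 and also without replicate 3, at 0.39 each time.

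**Figure D4:**
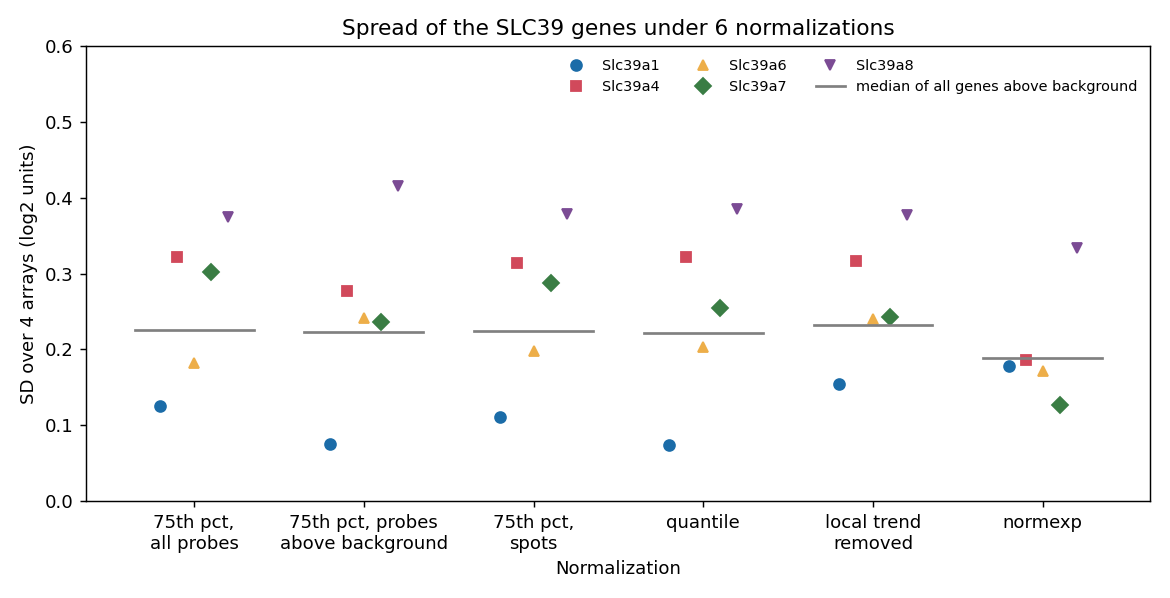
SD over 4 arrays, in log2 units, of the 5 SLC39 genes above background under 6 normalizations; grey lines are the median over all genes above background. Slc39a8 is the highest point in each column, and Slc39a1 is the lowest in all but the normexp column, where Slc39a7 is.

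Other genes of zinc transport were read by the same criterion. Of 8 further SLC39 genes 6 had a probe matched by accession, and none was matched to Slc39a10 or Slc39a13. Of these 6, Slc39a2, Slc39a3, Slc39a9 and Slc39a11 met it on all 4 arrays. Slc39a5, which encodes an importer known from intestine and pancreas, was on 3 arrays, all except replicate 2. Slc39a12, known from brain, was on none. Slc39a3, the close relative of Slc39a1 that encodes ZIP3, stood at 5.14, 4.73, 5.15 and 5.08 on replicates 1 to 4. Slc39a9, which encodes the Golgi importer ZIP9, stood at 0.04 ± 0.38 (SD, n = 4). In all, 9 of 12 measured SLC39 genes met the criterion, which 38.7% of all genes with a symbol did.

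On the export side, 4 of 10 SLC30 genes passed on all 4 arrays, Slc30a1, Slc30a3, Slc30a6 and Slc30a7, a share near the 38.7% of all genes. Slc30a5 was on 2 arrays and the other 5 on none. Slc30a1, the zinc exporter of the plasma membrane, had levels of 2.50, 2.86, 2.78 and 3.01. Slc30a6, a Golgi zinc transporter, had levels of 1.59, 1.76, 1.83 and 2.04. Of 4 metallothionein genes and Mtf1, Mt1 and Mt2A met the criterion, Mt3 and Mt4 were on no array, and Mtf1 was on 3.

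Genes whose products are known to act on the members were read next. Of 8 such genes 7 met the criterion on all 4 arrays, as did 38.7% of all genes. The CK2 subunit genes Csnk2a1, Csnk2a2 and Csnk2b, whose kinase acts on ZIP7, were all among them, with Csnk2b at 5.95 ± 0.32 (SD, n = 4). So were Rela and Nfkb1, the NF-kB subunit genes tied to SLC39A8 in human cells. Rela had levels of 3.24, 3.44, 3.93 and 2.40, highest on replicate 3 and lowest on replicate 4. Stat3 and Il1b were also above background, at 2.76 ± 0.28 and 4.15 ± 0.12 (SD, n = 4 each). Il6, whose product induces Slc39a14 in mouse liver, was on no array, as were 51.4% of all genes with a symbol. Its bearing on Slc39a14 was not tested.

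**Figure D5:**
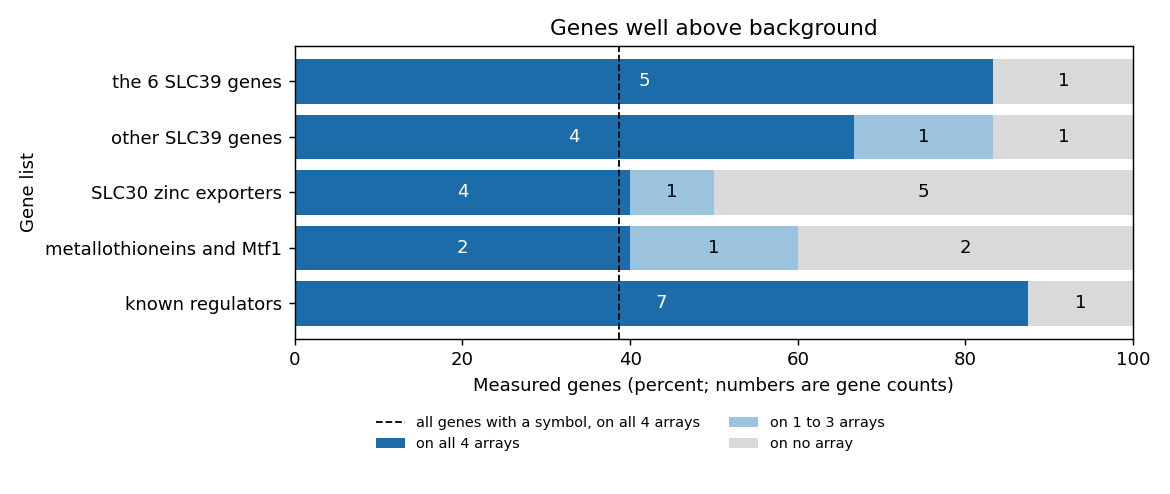
Share of measured genes in each list by the number of arrays on which they were well above background (all 4, 1 to 3, or none), with gene counts inside the bars; the dashed line marks the 38.7% of all genes with a symbol that were on all 4. The 6 SLC39 genes split into 5 and 1, and the SLC30 exporters into 4, 1 and 5.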

How the data were processed

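The authors ran Feature Extraction 11.0.1.1, per the sample records. What they deposited is, for every spot, a processed intensity with its error, the raw intensities of spot and surroundings, and flags of 0 or 1, such as the one for well above background. The header's quality verdict was ExtractionInRange on replicates 1 and 3 but ExtractionEvaluate on the other arrays. Processed signals near the lowest value are floored and were not ranked.

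Control spots (4259) and outlier spots (491 to 828 per array) were left out, and spots of a probe were averaged on the log2 scale. A probe was well above background where at least 0.5 of its spots were. Accessions without versions matched 1 symbol for 21109 of 45598 probes in RefSeq (GRCr8). The array design names build rn4, so no probe or gene positions are given; promoter windows carry the RefSeq table's own GRCr8 coordinates. Levels are relative to the 75th percentile over probes. A gene passed if any probe passed on all 4 arrays, and its level is that of the probe with the highest mean. With 1 group no test between groups was run; Dixon's ratio was used to mark single arrays that stood apart. The members and lists were chosen with earlier results of these data known. All 6 members are named, with the genes of fixed lists. The number of arrays limits the precision. Alternatives covered the flag, arrays required, probes, spots, scaling, background correction, local trend and each replicate. The steps ran in Python 3.11.15 with numpy 2.4.6 and pandas 2.3.3; normexp (offset 50, on median signals) ran in limma 3.58.1 under R 4.3.3. Some steps were run on simulated data, with single-spot probes and the percentile taken over probes above background. The flag was set there from the simulated truth. That run therefore could not test the detection call, the main scaling or the averaging of spots.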

Additional observations from a re-analysis of the deposited data

Results flagged for a closer look

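Dixon's ratio, the gap between an end value and its neighbour over the whole range, was computed for 24 gene or probe levels. It passed the critical value for 4 samples in 1 of them, and chance flags about 1 in 20. That gene was Slc39a3, a sister gene outside the 6, with a ratio of 0.844: replicate 2 stood at 4.73 and the other arrays between 5.08 and 5.15. The spots within 10 rows and 10 columns of it deviated by a median of -0.03 log2 units on replicate 2. None of the 7 SLC39 probes described above exceeded the critical value. Of all 6418 genes above background, 315 (4.91%) did.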

How the results depend on the processing

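The count of 5 members well above background did not change in the alternatives run, except for the looser flag, which gave 6. Without single replicates the count was between 5 and 5. The median SD of the 5 members was 0.30. It was 0.18 with the normexp correction, where the median over all genes was 0.19. The offset of that method adds a constant of 50 to every signal, bright or dim, and its share was not tested. Without single replicates the median SD lay between 0.22 and 0.25, below that of all genes (0.24) only without replicate 2, and in the remaining alternatives between 0.24 and 0.40, the last without scaling. Levels of the 6 genes moved by less than 1 SD with quantile normalization, with the local trend removed and without any single replicate. They moved by more with the percentile over spots (by -2.47 on average) and over probes above background (by -4.46), which by construction shift every gene of an array alike, and with normexp. The mean of both Slc39a1 probes put its level at 2.68, against 5.60 for the brighter probe. With 1 slide, no block for slide could be fitted. No paired analysis was possible because the labels hold 1 group. Signal over background limits Slc39a14 and the dimmer Slc39a1 probe. Whether the exposure altered any of these genes was not analysed here.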
